A study of Saccharomyces cerevisiae with 90 samples.

Results

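The 40 genes described here encode the proteins that load amino acids onto tRNAs and start and extend polypeptides in the cytosol of budding yeast. They were taken by symbol from a list of cytosolic aminoacyl-tRNA synthetases and of translation initiation and elongation factors, and not by their expression. Earlier results of these data were known, however, when the members and the other gene lists were chosen. All 40 were found, each with 1 probe set, among the 5562 genes of a table of 10 h colonies and among the 5560 genes of a table of cells from synthetic complete (SC) medium. By role they comprise 18 synthetase genes, 4 elongation factor genes and 18 initiation factor genes.

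Aminoacyl-tRNA synthetases join each amino acid to its tRNA, and fall into the unrelated structural classes I and II. Initiation begins when eIF2 brings the initiator tRNA to the small ribosomal subunit with the help of eIF3, eIF1 and eIF5, while eIF4E binds the mRNA cap. eIF2 is recharged with GTP by its exchange factor eIF2B, the step that is slowed when amino acid starvation activates the kinase Gcn2. The genes of this machinery are known in yeast to be expressed strongly in fast growth, with those of the ribosome, and Ras and cyclic AMP (cAMP) signalling through protein kinase A is known to favour growth genes and to hold down stress genes.

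The colony table holds 70 Affymetrix arrays of the G85 background after 10 h on agar. Wild-type colonies were filamentous on SLAD, a low-ammonium medium, with uracil and histidine (3 arrays), or in the yeast form on SCD, a complete medium (6 arrays, 1 of them without a genotype label). All deletion strains grew on SLAD with both supplements. The single deletions were tec1, cup9, sfl1, sok2 and skn7, marked with bcKanMX4, and yap6, marked with NatMX4 (5 arrays each for tec1 and cup9, 3 for the rest). A further 13 strains were labelled with a pair of deletions (3 arrays each). All 6 genes encode transcription factors.

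The SC table holds 20 arrays of MATa/alpha diploids homozygous for ura3-52. The mutants were ira1 (ira1::HIS3/ira1::LEU2, SR595), ira1RA (the same disruptions with plasmid-borne IRA1RA, whose active arginine is an alanine, SR954) and ira2 (ira2::HIS3/ira2::LEU2, SR563). Others were ras2v19 (plasmid-borne dominant-active RAS2V19, SR453) and ras2a22 (plasmid-borne dominant-negative RAS2A22, SR753). Each of these had 2 arrays, and the wild type with the empty plasmid pRS316 (SR1187) had 4. IRA1 and IRA2 encode proteins that switch Ras off. A last set lacked RAS1, RAS2 and the phosphodiesterase gene PDE2 (ras1::HIS3, ras2delta, pde2::kanR) and was given cAMP from outside. The 0 mM arrays (2) came from SR959, which carries pRS315, and the arrays of 0.5, 1 and 2 mM (1, 1 and 2) came from SR957 with no plasmid named. The concentration and the strain cannot be told apart in any step from 0 mM. The ira and cAMP strains also carry leu2 and his3 alleles that the wild type lacks. The labels do not say that arrays of a group came from separate cultures, so p-values measure the spread between these samples, which may be technical.

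Several libraries stood apart or read against their labels. The library labelled tec1 replicate 1 read 8.68 for TEC1 and 4.07 for CUP9 (log2), while the library labelled cup9 replicate 4 read 4.57 for TEC1 and 8.21 for CUP9. The arrays labelled cup9-yap6 read 8.04 to 8.38 for CUP9, so no departure from single deletions was computed for them. Both ras2a22 arrays held the same intensity at 22.1 percent of 643 bright genes, against at most 1.09 percent in each of the 189 other pairs of SC arrays, and may not be independent. Among the SC wild-type arrays, replicates 3 and 4 correlated at 0.914 over genes, and the other 5 pairs at 0.748 to 0.764. The form markers FLO11, MEP2 and DAL5 were all higher in filamentous than in yeast-form wild-type colonies (log2 changes 2.20, 1.26 and 4.67).

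The members differed in how far they moved between groups of colonies. The widest spread of group means over the 21 colony groups was that of GCD2, the delta subunit of eIF2B (1.85 on the log2 scale). NIP1, TIF35 and RPG1, which encode eIF3 subunits c, g and a, followed with 1.67, 1.66 and 1.60. GCD2 was also the dimmest member, with a mean log2 level of 5.79 over all colony arrays, at percentile 32.8 among genes. The array medians were 6.27 to 6.68, so its changes rest on readings in the dim range. The narrowest were YEF3, the fungal elongation factor eEF3 (0.42), and DPS1, the aspartyl-tRNA synthetase gene (0.55). The sfl1-yap6 strain had the lowest group mean for 20 of the 40 members and cup9-sfl1 for 8. The highest group mean was in tec1-cup9 colonies for 15 members and in filamentous wild-type colonies for 7. These counts were not made over all genes. Against the filamentous wild type, limma at an adjusted p under 0.05 called 46.6 percent of all genes in sfl1-yap6 colonies. That was the largest share of any deletion strain. In tec1-cup9 colonies it called 1.80 percent of all genes and no member.

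Filamentous wild-type colonies were set against yeast-form colonies to ask what accompanies filamentous growth on low ammonium. Initiation factor genes were higher in filaments: 13 of 18 rose and 1 fell, with a median log2 change of 0.55. The synthetase genes moved less, with 5 of 18 higher, 1 lower and a median of 0.24. The elongation factor gene CAM1 went the other way. In all, 18 members rose and 3 fell by limma at an adjusted p under 0.05, beside 44.9 percent of all genes called in either direction, 21.6 percent higher and 23.2 percent lower. The median was 0.35 for the members and 0.05 for all genes. Form and medium changed together here and cannot be told apart.

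Among the eIF2 and eIF2B genes, 6 of 8 rose. GCD2 read 6.89, 6.74 and 6.98 in filamentous colonies, against 5.35 to 5.87 with a median of 5.76 in yeast-form colonies. The groups did not overlap, and the change was 1.15 ± 0.27 (SE, limma adjusted p = 0.000503), or 2.22-fold. SUI2, the alpha subunit of eIF2 that Gcn2 phosphorylates, read 8.77, 9.03 and 8.86 in filaments and 7.71 to 8.39 (median 8.15) in the yeast form. Its groups were also apart (0.78 ± 0.16, adjusted p = 7.69e-05). SUI3, the beta subunit, read 9.29, 9.38 and 9.34 in filaments and 8.50 to 8.59 (median 8.56) in the yeast form, again without overlap (0.78 ± 0.18, adjusted p = 0.000297). Of the other eIF2B subunits, GCD6 (epsilon, the catalytic subunit; 0.68), GCN3 (alpha; 0.62) and GCD1 (gamma; 0.55) rose. GCD11, the gamma subunit of eIF2 (0.21), and GCD7, the beta subunit of eIF2B (-0.01), did not pass.

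Of the eIF3 genes, 5 of 6 rose. TIF35 read 10.63, 10.54 and 10.79 in filaments and 9.81 to 10.06 (median 9.97) in the yeast form. These arrays did not overlap (0.70 ± 0.25, adjusted p = 0.0191), but the call was lost without filamentous replicate 3 (adjusted p = 0.0843). TIF34, subunit i, read 10.38, 10.28 and 10.43 in filaments and 9.61 to 9.93 (median 9.74) in the yeast form, with no overlap (0.62 ± 0.17, adjusted p = 0.00287). HCR1 (subunit j, 0.55), PRT1 (subunit b, 0.49) and NIP1 (0.44) also rose, and RPG1, the largest subunit, had a change of 0.10 that did not pass.

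Of the remaining initiation factor genes, CDC33, which encodes the cap-binding protein eIF4E, changed most. It read 10.47, 10.30 and 10.60 in filamentous colonies, against 9.11 to 9.78 (median 9.46) in yeast-form colonies. Every filamentous array lay above every yeast-form array, by a mean of 1.01 ± 0.20 (adjusted p = 4.66e-05). SUI1 (eIF1, start codon choice) rose by 0.48. FUN12 (eIF5B, subunit joining) fell: it read 9.70, 9.68 and 9.86 in filaments and 10.03 to 10.27 in the yeast form (-0.41 ± 0.16, adjusted p = 0.0363). TIF5 (eIF5, the GTPase activator of eIF2) had a change of 0.38 that did not pass.

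The synthetase genes that rose were TYS1 (tyrosine), SES1 (serine), GUS1 (glutamate), KRS1 (lysine) and THS1 (threonine). TYS1 read 9.83, 9.90 and 9.78 in filaments and 9.14 to 9.35 (median 9.20) in the yeast form, without overlap (0.62 ± 0.18, adjusted p = 0.00393). SES1 read 10.82, 10.78 and 10.82 against 10.05 to 10.37 (median 10.28), also apart (0.55 ± 0.18, adjusted p = 0.0121). DED81 (asparagine) was called lower, although its groups overlapped: 11.66, 11.17 and 11.65 in filaments, against 11.62 to 11.89 in the yeast form (-0.30 ± 0.11, adjusted p = 0.0221).

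CAM1, which encodes a gamma subunit of the elongation factor eEF1B and lies in its list with TEF4, the gene of the other gamma subunit, was the member that fell most. It read 8.73, 8.70 and 8.59 in filaments and 9.45 to 9.63 (median 9.59) in the yeast form. The arrays were far apart (-0.89 ± 0.14, adjusted p = 1.69e-06). TEF4 (-0.29), YEF3 (-0.13) and EFB1, the exchange subunit of eEF1B (0.21), did not pass. Under quantile normalization the split was 25 higher and 1 lower, and the calls of DED81 (adjusted p = 0.577) and FUN12 (adjusted p = 0.267) were lost.

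**Figure D1:**
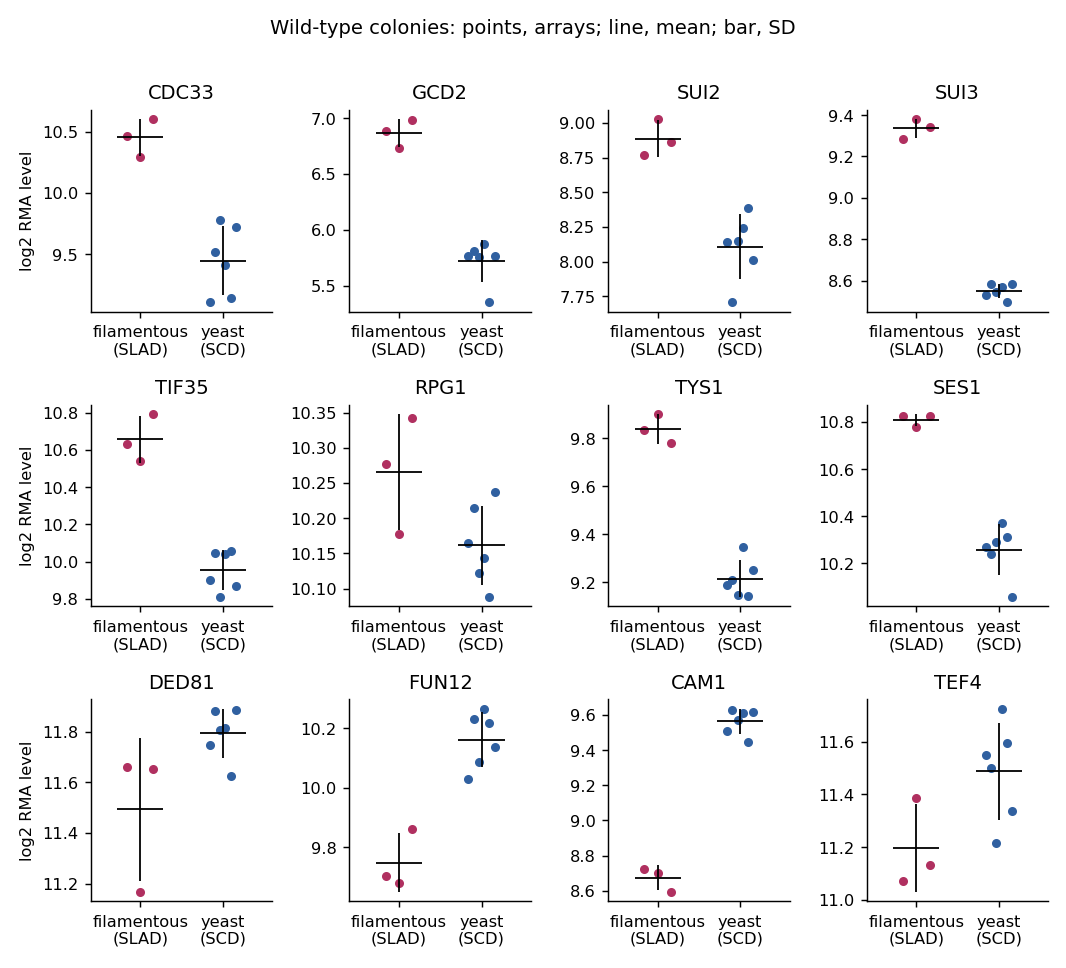
Log2 RMA level (vertical axes) of 12 members in wild-type colonies, filamentous on SLAD (3 arrays, left) and yeast form on SCD (6 arrays, right); points are arrays, lines the mean and bars the SD. CDC33, GCD2, SUI2, SUI3, TIF35, TYS1 and SES1 lay higher in every filamentous array, CAM1 and FUN12 lower, and RPG1, DED81 and TEF4 overlapped.

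Other genes of the pathway, listed without being members, moved in both directions between the forms. Of 17 other translation factor genes measured, 6 rose and 2 fell. TIF11 (eIF1A, 1.05) and the release factor genes SUP35 (0.77) and SUP45 (0.71) rose, and DED1, an initiation helicase gene, fell (-0.49). Only AIM10 (0.41) of 14 genes for mitochondrial synthetases rose. GCN20, a co-activator of Gcn2, rose (0.36), while its partner GCN1 fell (-0.44). Of 77 ribosomal protein genes with a probe set of their own, 11 rose and 5 fell. Both counts are below the shares of all genes, 21.6 percent higher and 23.2 percent lower. So is the 1 rise among the mitochondrial synthetase genes. Of 6 general stress genes, 4 fell, and their mean log2 level was 5.10 to 5.22 in filamentous arrays and 6.65 to 7.00 in yeast-form arrays. The member mean was 9.95 to 10.06 in filamentous arrays and 9.69 to 9.75 in yeast-form arrays. The part of the stress genes in the members' change was not tested.

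Each deletion strain was then compared with the filamentous wild type, to ask what the deleted factor does to the programme on low ammonium. All these comparisons share the same 3 wild-type arrays. No member passed in tec1, cup9 or sok2 colonies, where limma called 0.126, 0.342 and 1.17 percent of all genes. At an unadjusted p under 0.05 there were 2, 3 and 5 members. Quantile normalization called 1 member in cup9 and 1 in sok2 colonies. In sfl1, skn7 and yap6 colonies members did pass, most of them lower than in the wild type.

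In sfl1 colonies 12 of 40 members fell and none rose, beside 24.8 percent of all genes called and 14.5 percent lower. GCD2 read 5.75, 5.60 and 4.84 in sfl1 colonies, against 6.89, 6.74 and 6.98 in the wild type, a change of -1.47 ± 0.31 (adjusted p = 0.000517) with no overlap. GCN3 read 7.85, 8.05 and 7.70 in sfl1 colonies and 8.55, 8.88 and 8.63 in the wild type, also apart (-0.82 ± 0.15, adjusted p = 6.46e-05). SUI3 (-0.77), SUI2 (-0.55), TIF35 (-0.76), HCR1 (-0.62), NIP1 (-0.61), TIF34 (-0.54) and PRT1 (-0.52) fell too, so that 5 of 6 eIF3 genes were lower. Of the synthetases, TYS1 (-0.60), KRS1 (-0.44) and DPS1 (-0.34) fell. The count was 2 without sfl1 replicate 3, whose member mean was 9.43 beside 9.65 and 9.87 in the other sfl1 arrays, and 6, 5 and 6 without wild-type replicates 1, 2 and 3. Of 6 stress genes 3 rose, that library had a stress gene mean of 6.91, against 5.10 to 5.22 in the wild type, and the part of the stress genes was not tested.

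In skn7 colonies 13 members fell and CAM1 rose, beside 37.1 percent of all genes called, 16.0 percent higher and 21.0 percent lower. The calls made up a smaller share of the members than of all genes, and the falls a larger one. GCD2 read 4.58, 5.37 and 5.15 in skn7 colonies, more than 1 log2 unit under every wild-type array (-1.84 ± 0.31, adjusted p = 8.82e-05). TIF35 read 9.16, 9.81 and 9.58 in skn7 colonies and 10.63, 10.54 and 10.79 in the wild type (-1.14 ± 0.29, adjusted p = 0.0027). HCR1 read 9.21, 9.73 and 9.58 in skn7 colonies and 10.60, 10.56 and 10.70 in the wild type (-1.11 ± 0.18, adjusted p = 8.03e-05). All 3 genes were lower in each skn7 array than in each wild-type array. SES1 (-0.77), SUI3 (-0.75), TYS1 (-0.74), TIF34 (-0.70), CDC33 (-0.66), GCD6 (-0.57), SUI1 (-0.53), PRT1 (-0.52), GCN3 (-0.50) and GLN4, the glutamine enzyme (-0.49), also fell. CAM1 read 9.48, 9.32 and 9.19 in skn7 colonies and 8.73, 8.70 and 8.59 in the wild type, higher in every array (0.66 ± 0.16, adjusted p = 0.00247). Without skn7 replicate 1, which had the lowest member mean of the group (9.51 beside 9.91 and 9.64), 5 members were called. Of 6 stress genes TSL1 alone rose.

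In yap6 colonies 4 members fell and 3 rose, beside 23.6 percent of all genes called, 12.6 percent higher and 11.1 percent lower. Neither count exceeds that share of 40 genes. CAM1 read 9.76, 9.88 and 9.52 in yap6 colonies, against 8.73, 8.70 and 8.59 in the wild type, without overlap (1.05 ± 0.16, adjusted p = 2.74e-06). HTS1, the histidine enzyme of cytosol and mitochondria, read 10.87, 11.05 and 11.11 in yap6 colonies and 10.49, 10.18 and 10.53 in the wild type (0.61 ± 0.18, adjusted p = 0.00928). ALA1, the alanine enzyme, rose by 0.32. All 3 stood higher in each yap6 array. GCD2 read 4.95, 5.43 and 5.57 in yap6 colonies, below each wild-type array (-1.55 ± 0.31, adjusted p = 0.000157), and NIP1 (-0.70), GCD6 (-0.67) and SUI1 (-0.51) fell as well. The count was 3 without yap6 replicate 1, 4 without wild-type replicate 2 or 3, and 12 in a fit of only these groups. The stress genes CTT1 and TSL1 rose (1.41 and 1.95), and their part was not tested.

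**Figure D2:**
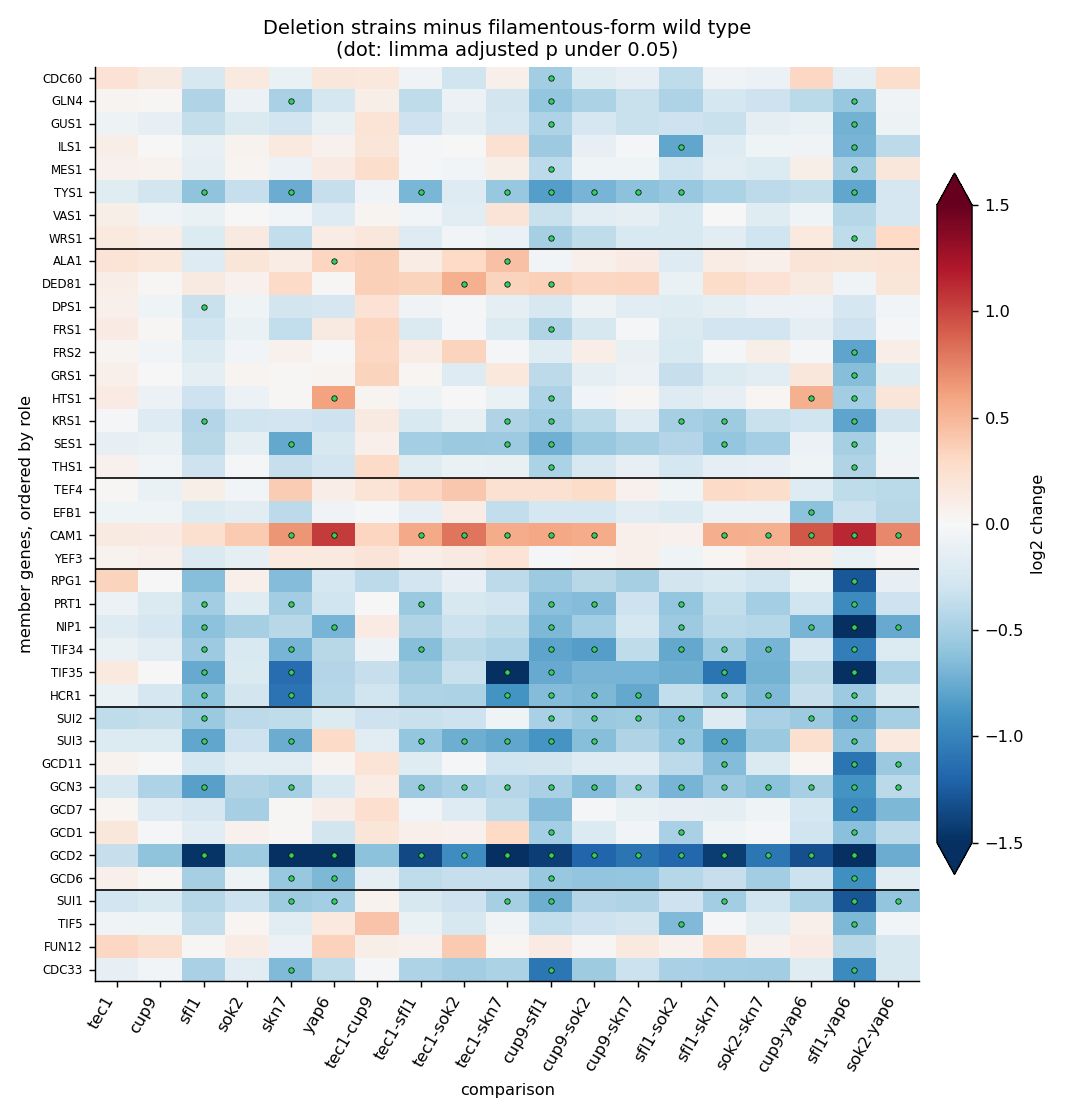
Log2 change against the filamentous wild type of the 40 members (rows, ordered by role from class I synthetases to other initiation factors) in 19 strains labelled with deletions (columns); green dots mark limma adjusted p under 0.05, and colours saturate at 1.5 in either direction. The GCD2 row is blue and the CAM1 row red across most columns, and the sfl1-yap6 column has the most dots, 30.

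Among strains with a pair of deletions, sfl1-yap6 colonies changed the most members: 29 fell and CAM1 rose, beside 46.6 percent of all genes called, 23.9 percent higher and 22.7 percent lower. The median was -0.63 for members and 0.02 for all genes. All 6 eIF3 genes and all 8 eIF2 and eIF2B genes fell, as did 3 of 4 other initiation factor genes. Of the synthetases, 6 of 8 in class I and 6 of 10 in class II fell, and FUN12, TEF4, EFB1 and YEF3 did not pass. Under the same test 46 of 77 ribosomal protein genes fell and 1 rose, and 9 of 17 other translation factor genes fell, with SUP35 (-1.96) and SUP45 (-1.60) furthest.

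NIP1, a scaffold subunit of eIF3, read 7.68, 7.80 and 6.84 in sfl1-yap6 colonies, against 9.06, 8.93 and 8.98 in the wild type. That was the smallest adjusted p among the members (-1.55 ± 0.20, adjusted p = 3.67e-09), and the groups were more than 1 log2 unit apart. TIF35 read 9.22, 9.28 and 8.95 in sfl1-yap6 colonies and 10.63, 10.54 and 10.79 in the wild type (-1.50 ± 0.29, adjusted p = 2.09e-05). RPG1 read 9.34, 9.51 and 8.15 in sfl1-yap6 colonies and 10.28, 10.18 and 10.34 in the wild type (-1.27 ± 0.28, adjusted p = 0.000191). Both stayed below the wild type in each array, with replicate 3 the lowest.

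Of the eIF2 and eIF2B genes, GCD2 had the largest change: 5.42, 5.0 and 4.62 in sfl1-yap6 colonies, against 6.89, 6.74 and 6.98 in the wild type (-1.85 ± 0.31, adjusted p = 1.64e-06). GCD11, the GTP-binding subunit of eIF2, read 9.98, 10.30 and 9.65 in sfl1-yap6 colonies and 11.02, 11.13 and 11.06 in the wild type (-1.10 ± 0.17, adjusted p = 2.46e-07). Neither overlapped the wild type. GCD7 fell by 0.95 on the log2 scale. SUI1 read 9.53, 9.59 and 8.89 in sfl1-yap6 colonies and 10.52, 10.72 and 10.64 in the wild type, and it fell by 1.29 (adjusted p = 7.45e-08). CDC33 read 9.73, 9.73 and 9.06 in sfl1-yap6 colonies, below 10.47, 10.30 and 10.60 in the wild type (-0.95 ± 0.23, adjusted p = 0.000434).

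The synthetase genes fell by less. KRS1, FRS2 (the alpha subunit of the phenylalanine enzyme) and TYS1 led, with -0.79, -0.79 and -0.77, followed by GUS1 (-0.71) and GRS1, the glycine enzyme (-0.64). KRS1 read 5.87, 5.77 and 5.68 in sfl1-yap6 colonies and 6.43, 6.63 and 6.64 in the wild type, without overlap (adjusted p = 9.05e-06). CAM1 was the 1 member that rose, with 9.74, 9.76 and 9.92 in sfl1-yap6 colonies, and 8.73, 8.70 and 8.59 in the wild type (1.13 ± 0.16, adjusted p = 9.13e-08). Without sfl1-yap6 replicate 3, whose member mean was 9.13 beside 9.48 in both other arrays, 19 members were called. All 6 stress genes rose, with a mean of 7.58 to 8.11 in sfl1-yap6 arrays and 5.10 to 5.22 in the wild type, highest in replicate 3, and their part was not tested.

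**Figure D3:**
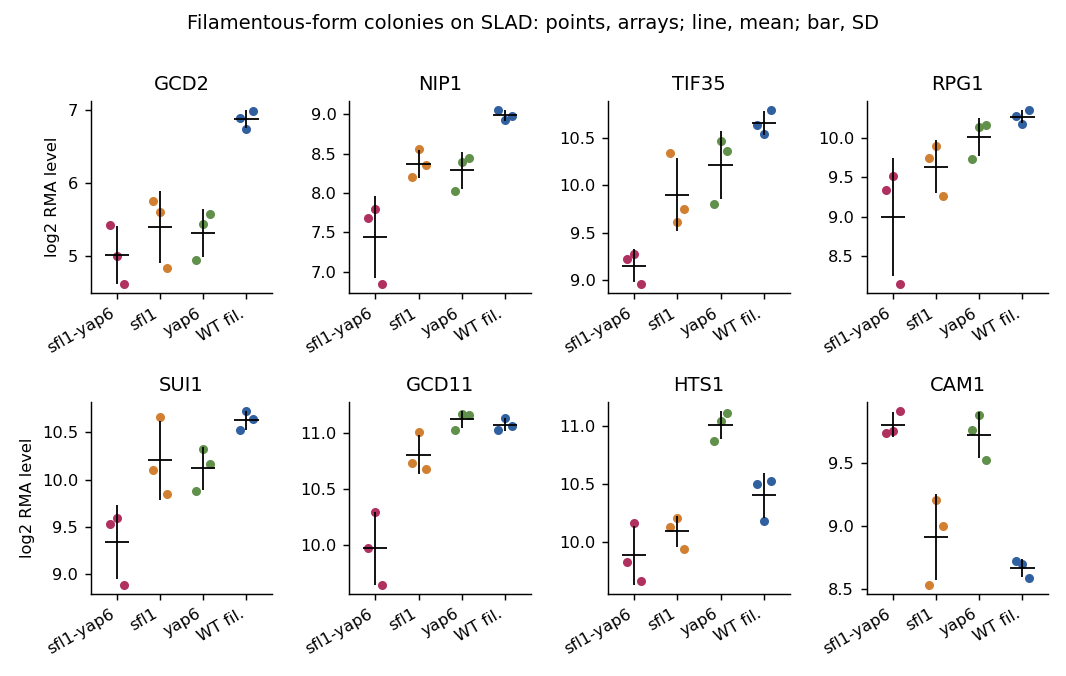
Log2 RMA level (vertical axes) of 8 members in filamentous-form colonies of sfl1-yap6, sfl1, yap6 and the wild type (3 arrays each, left to right); points are arrays, lines the mean and bars the SD. GCD11 and HTS1 were lower in sfl1-yap6 than in any yap6 or wild-type array, and CAM1 was high in both strains labelled yap6.

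In cup9-sfl1 colonies 24 members fell and 2 rose, beside 36.5 percent of all genes called, 14.6 percent higher and 21.9 percent lower. The median was -0.49. GCD2 read 5.98, 5.16 and 5.24 in cup9-sfl1 colonies, below each wild-type array (-1.41 ± 0.31, adjusted p = 0.000666). CDC33 read 10.14, 8.59 and 9.37 in cup9-sfl1 colonies and 10.47, 10.30 and 10.60 in the wild type, with a wide spread in the strain (-1.09 ± 0.23, adjusted p = 0.000394). SUI3 (-0.88), TYS1 (-0.82), TIF34 (-0.79), SUI1 (-0.73) and SES1 (-0.72) followed, while CAM1 (0.57) and DED81 (0.36) rose. The DED81 wild-type arrays ran from 11.17 (replicate 2) to 11.66, and the low array raises its change. The count was 8 without cup9-sfl1 replicate 3, 15 without replicate 2, and 17 and 16 without wild-type replicates 1 and 3. Of 6 stress genes 4 rose, and their part was not tested.

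The other pairs called fewer members, and no member passed in tec1-cup9 colonies (1.80 percent of all genes called by limma, 2 members at an unadjusted p under 0.05). In sfl1-sok2 colonies 12 fell (21.4 percent of all genes called, 12.0 percent lower), among them GCD2 (-1.18), ILS1, the isoleucine enzyme (-0.78), TIF34 (-0.77) and GCN3 (-0.70). The count was 3 without sfl1-sok2 replicate 1, whose stress gene mean was 9.15 beside 6.87 and 6.56 in the other arrays, and 6, 7 and 5 without wild-type replicates 1, 2 and 3, and 4 in a fit of only these groups. In tec1-skn7 colonies 9 fell and 3 rose (31.9 percent of all genes, 17.3 percent higher and 14.6 percent lower), led by GCD2 (-1.72), TIF35 (-1.52) and HCR1 (-0.90), while CAM1 (0.56), ALA1 (0.44) and DED81 (0.33) rose. The calls stood below the share of all genes called, and the falls above that of genes lower. Wild-type replicate 2 was low in DED81 (11.17), which raises its change. The count was 6 without tec1-skn7 replicate 3 or wild-type replicate 2, and quantile normalization left 11 lower and 1 higher. In sfl1-skn7 colonies 10 fell and CAM1 (0.55) rose (19.4 percent, 8.11 higher and 11.3 lower), with GCD2 (-1.42), TIF35 (-1.10), SUI3 (-0.80) and GCD11 (-0.65) among them. This count was 4 and 6 without sfl1-skn7 replicates 1 and 3, and 7, 6 and 6 without wild-type replicates 1, 2 and 3.

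In cup9-sok2 colonies 8 fell and CAM1 (0.56) rose (10.6 percent of all genes called, 5.29 higher and 5.36 lower), with GCD2 at -1.20 and TIF34 at -0.83. Only 1 call was left without cup9-sok2 replicate 2, 4, 4 and 3 without wild-type replicates 1, 2 and 3, and 17 in a fit of only these groups. In tec1-sfl1 colonies 6 fell and CAM1 (0.57) rose (18.8 percent, 10.0 higher and 8.77 lower), namely GCD2 (-1.35), TYS1 (-0.68), TIF34 (-0.64), SUI3 (-0.58), PRT1 (-0.56) and GCN3 (-0.54). These calls stood just below the share of all genes called, and the falls above that of genes lower. Leaving out a tec1-sfl1 array gave 4, 3 and 4 for replicates 1, 2 and 3, and leaving out a wild-type array gave 4, 3 and 2. A fit of only these groups gave 14. In cup9-skn7 colonies 5 fell (14.1 percent, 9.56 lower), with GCD2 at -1.09 and HCR1 at -0.77. That count is below the share of all genes called, and somewhat above that of genes lower. No call was left without cup9-skn7 replicate 1, and 2, 2 and 1 without wild-type replicates 1, 2 and 3. In sok2-skn7 colonies 4 fell, GCD2 (-1.09), TIF34 (-0.70), HCR1 (-0.67) and GCN3 (-0.61), and CAM1 rose by 0.53 (7.34 percent, 3.70 higher and 3.63 lower). The count was 1 without sok2-skn7 replicate 1 or 2 or wild-type replicate 1 or 3, 3 without wild-type replicate 2, and 14 in a fit of only these groups.

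In tec1-sok2 colonies GCD2 (-0.94), SUI3 (-0.73) and GCN3 (-0.49) fell, and CAM1 (0.80) and DED81 (0.54) rose (10.0 percent of all genes called, 7.59 higher and 2.43 lower). Here too the low wild-type replicate 2 (11.17) raises the change of DED81. Without tec1-sok2 replicate 1 the count was 14, without replicates 2 and 3 it was 1 and 2, without wild-type replicate 2 or 3 it was 2, and quantile normalization gave 4 lower and 1 higher. A fit of only these groups left 0 calls. In the strain labelled cup9-yap6, GCD2 (-1.32), NIP1 (-0.69) and EFB1 (-0.62) were among 5 that fell, and CAM1 (0.93) and HTS1 (0.53) rose (22.0 percent, 13.5 higher and 8.52 lower). Without wild-type replicate 2, 3 were called. In sok2-yap6 colonies NIP1 (-0.76), SUI1 (-0.59), GCD11 (-0.56) and GCN3 (-0.41) fell, and CAM1 rose by 0.72 (14.9 percent, 9.78 higher and 5.11 lower). For cup9-yap6 and sok2-yap6 alike, the calls stood below the share of all genes called, and the falls above that of genes lower. The count was 2, 8 and 3 without sok2-yap6 replicates 1, 2 and 3, and 2 and 3 without wild-type replicates 2 and 3.

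GCD2 and CAM1 stood at opposite ends of the set in colonies on low ammonium. Over the 61 arrays of deletion strains GCD2 ran from 4.58 to 7.13 with a median of 5.71, against 6.74 to 6.98 in filamentous wild-type arrays. That median lay below the colony array medians of 6.27 to 6.68. Strain means of GCD2 lay between 5.02 in sfl1-yap6 and 6.52 in tec1 colonies. CAM1 ran from 8.38 to 10.03 with a median of 9.19, against 8.59 to 8.73 in the wild type. Its strain means lay between 8.74 in sfl1-sok2 and 9.80 in sfl1-yap6 colonies. Yeast-form wild-type arrays, on the other medium, read 5.35 to 5.87 for GCD2 and 9.45 to 9.63 for CAM1. GCD2 was not alone: TYS1, PRT1, TIF34, HCR1, SUI2 and CDC33 also had all 19 strain means below the filamentous wild type. CAM1 had all 19 above it, and DED81 17 of 19. These strains are all set against the same 3 wild-type arrays, and the part of those arrays was not tested.

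For each pair with both single deletions, the change in the double was tested against the sum of the changes in the singles, which asks whether the factors act on the members additively. In 9 of 12 pairs limma found no departure among the members, with 1 to 5 members per pair at an unadjusted p under 0.05 and 0 to 0.899 percent of all genes called. In sfl1-skn7 colonies 4 members fell less than the sum (10.0 percent of all genes called, 5.86 higher), a share close to that of all genes called: GCD2 by 1.88 ± 0.44 (adjusted p = 0.0123), HCR1 by 1.22 ± 0.26 (adjusted p = 0.00846), TYS1 by 0.87 ± 0.29 (adjusted p = 0.0479) and GCN3 by 0.77 ± 0.21 (adjusted p = 0.0203). That count was 0 without skn7 replicate 1, 1 without sfl1 replicate 3, 2 without wild-type replicate 2, 8 without skn7 replicate 2 and 10 without sfl1 replicate 2. For each of these 4 members the sum would lie below the lowest of the 61 deletion arrays. Those lowest values were 4.58 for GCD2, 9.21 for HCR1, 8.72 for TYS1 and 7.67 for GCN3. The part of a lower limit of the scale was not tested.

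In sfl1-yap6 colonies 3 members were lower than the sum (14.3 percent of all genes called, 6.02 lower), a share below that of all genes called and near that of all genes lower: GCD11 (-0.88 ± 0.24, adjusted p = 0.00902), HTS1 (-0.82 ± 0.25, adjusted p = 0.0221) and FUN12 (-0.79 ± 0.27, adjusted p = 0.0387). HTS1 read 9.83, 10.16 and 9.66 in sfl1-yap6 colonies, although it had been higher in yap6 than in wild-type colonies. None of the 3 departures was left without sfl1-yap6 replicate 3, and 1 was left without wild-type replicate 2 or yap6 replicate 3. In tec1-cup9 colonies GCN3 alone was higher than the sum (0.82 ± 0.18, adjusted p = 0.0103), beside 2.62 percent of all genes called and 0.270 percent higher. That is 1 of 40, near the share of all genes called, and it was lost in a fit of only these groups and without tec1-cup9 replicate 1 or wild-type replicate 2.

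In SC medium the members were followed over the concentration of cAMP given to cells lacking both RAS genes and PDE2. Here values are intensities as deposited, and changes are log2 of the median-scaled intensity. Between 2 mM (SR957) and 0 mM cAMP (SR959), 31 of 40 members rose and none fell, beside 19.6 percent of all genes called and 12.1 percent higher. The median was 1.72 for members and 0.13 for all genes, and all 40 members had a positive change. That last count was not made over all genes. By role, 9 of 10 class II and 6 of 8 class I synthetase genes rose, with 3 of 4 elongation factor genes and 13 of 18 initiation factor genes.

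TEF4, the eEF1B gamma subunit gene that did not pass between the forms, changed most. It read 24 and 43 at 0 mM, 225 at 0.5 mM, 393 at 1 mM, and 427 and 439 at 2 mM cAMP. The intensity was higher at each concentration than at the one before, and was 13.5-fold higher at 2 mM than at 0 mM (3.75 ± 0.42, limma adjusted p = 0.000101). YEF3 read 261 and 234 at 0 mM, 1283 at 0.5 mM, 1437 at 1 mM, and 1688 and 1261 at 2 mM. Most of that change lay between 0 and 0.5 mM, where the strain changed too (2.56 ± 0.28, adjusted p = 7.8e-05). CAM1 behaved otherwise: it read 287 and 265 at 0 mM, 320 at 0.5 mM, 327 at 1 mM, and 323 and 324 at 2 mM (0.23 ± 0.36, adjusted p = 0.812).

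Of the synthetase genes, WRS1 (tryptophan) read 83 and 50 at 0 mM, 243 at 0.5 mM, 321 at 1 mM, and 535 and 468 at 2 mM. It was higher at each concentration than at the one before (2.96 ± 0.34, adjusted p = 0.000109). MES1 (methionine, 2.51), CDC60 (leucine, 2.41), FRS1 (the beta subunit of the phenylalanine enzyme, 2.34), ILS1 (2.32) and VAS1 (valine, 2.23) also rose by more than 2 log2 units. For FRS1 and ILS1 the change lay mostly between 0 and 0.5 mM (2.35 and 2.09), where the strain changed too. From 0.5 to 2 mM, within SR957, they changed by -0.02 and 0.23. MES1, CDC60 and VAS1 changed by 1.78, 1.19 and 1.15 over that range. THS1 read 302 and 319 at 0 mM, 880 at 0.5 mM, 1251 at 1 mM, and 1516 and 1320 at 2 mM, without overlap between the ends (2.19 ± 0.25, adjusted p = 0.000101). GLN4, GUS1 and KRS1 did not pass.

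Of the eIF3 genes, RPG1 changed most, with 40 and 41 at 0 mM, 79 at 0.5 mM, 142 at 1 mM, and 262 and 256 at 2 mM (2.68 ± 0.30, adjusted p = 9.03e-05). It was higher at each step. PRT1 (2.36), TIF34 (1.59) and TIF35 (1.54) passed, and NIP1 and HCR1 did not. GCD11 read 82 and 90 at 0 mM, 62 at 0.5 mM, 204 at 1 mM, and 344 and 328 at 2 mM (1.97 ± 0.41, adjusted p = 0.00463). Its step came after 0.5 mM, within strain SR957. GCD2, listed at 1 in some wild-type arrays of this table, was the 1 gene of 8 in the eIF2 and eIF2B list that did not pass. CDC33 read 327 and 308 at 0 mM, 766 at 0.5 mM, 680 at 1 mM, and 1034 and 951 at 2 mM (1.64 ± 0.33, adjusted p = 0.00371). SUI1 read 817 and 851 at 0 mM, 741 at 0.5 mM, 632 at 1 mM, and 1140 and 1044 at 2 mM, and did not pass (0.39, adjusted p = 0.654).

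**Figure D4:**
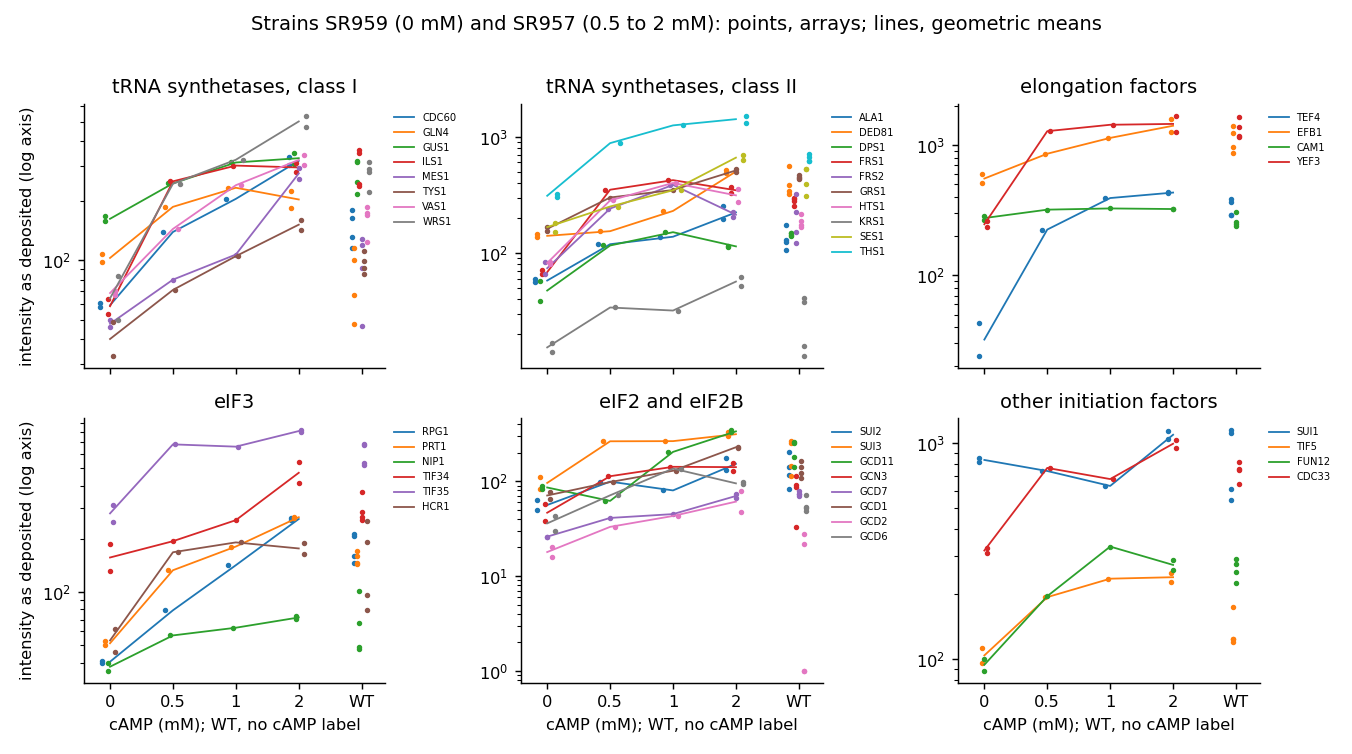
Deposited intensity (log axes) of the members, 1 panel per role, at 0 mM (SR959), 0.5, 1 and 2 mM cAMP (SR957) and in the wild type (WT); concentrations are evenly spaced, points are arrays and lines join geometric means. TEF4 read 24 and 43 at 0 mM and 427 and 439 at 2 mM, while CAM1 stayed between 265 and 327 at every concentration.

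Within strain SR957, where only the concentration differed, there were 4 arrays and no test was made. At 1 mM, 35 of 40 members were above their value at 0.5 mM, as were 46.3 percent of all genes. At 2 mM, 29 members were above 1 mM, as were 53.7 percent of all genes. The median step over members was 0.38 and 0.37 on the log2 scale, and 0 and 0.09 over all genes. From 0 to 0.5 mM, where strain number and plasmid changed, the median step was 1.01 for members and 0 for all genes. In the order of concentration, 23 members were highest at 2 mM, then 1, 0.5 and 0 mM, as were 10.7 percent of all genes.

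Of 23 other translation factor genes, 11 rose between 0 and 2 mM and none fell, with ANB1 (an eIF5A gene, 3.99), RLI1 (ribosome recycling, 2.43), TIF4631 (eIF4G, 2.41) and TIF3 (eIF4B, 2.06) furthest. Of 131 ribosomal protein genes 110 rose. Of 14 genes for mitochondrial synthetases, MSE1 fell and none rose. Most of them read near or under the array medians of 28 to 30, which limits what can be called. MSE1 itself read 49 and 31 at 0 mM and 17 and 4 at 2 mM. All 6 stress genes fell, with a mean log2 level of 9.99 at 0 mM, 7.54 at 0.5 mM, 6.23 at 1 mM and 3.33 at 2 mM. The member means at these concentrations were 6.40, 7.48, 7.85 and 8.18, and the part of the stress genes was not tested.

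The 0 mM cells were also set against the wild type, which asks where the pathway without Ras and added cAMP lies. In 0 mM cells 26 members fell and none rose, beside 18.0 percent of all genes called and 11.2 percent lower. The median was -1.22 for members and 0.18 for all genes, or -0.13 for all genes under quantile normalization. TEF4 read 24 and 43 in 0 mM cells, against 293, 289, 385 and 367 in the wild type, with no overlap (-3.38 ± 0.37, adjusted p = 8.43e-05). YEF3 (-2.43), ILS1 (-2.32), RPG1 (-2.16), WRS1 (-2.10) and FRS1 (-2.05) followed. FRS1 read 66 and 71 in 0 mM cells and 299, 282, 290 and 254 in the wild type. CAM1 (0.06) and SUI1 (0.03) did not pass. Of 131 ribosomal protein genes 115 fell, and all 6 stress genes rose (mean 9.99 in 0 mM cells and 4.25 in the wild type), whose part was not tested. Without either 0 mM array, or in a fit of only these groups, 14 members were called, and nutrient markers differ between these strains.

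Of the dominant alleles of RAS2, the dominant-negative one had lower values for most members, few of which passed. In ras2a22 cells ILS1, WRS1 and TIF35 fell and none rose, beside 8.00 percent of all genes called and 4.24 percent lower. These 3 calls are just below the share of all genes called, and above that of genes lower. The change was negative for 34 of 40 members and 19 had an unadjusted p under 0.05, with a median of -0.60 for members and -0.03 for all genes. Neither of these counts was made over all genes, and the ras2a22 arrays may not be independent. ILS1 read 107 and 113 in ras2a22 cells, against 361, 346, 238 and 241 in the wild type (-1.39 ± 0.25, adjusted p = 0.00657). WRS1 read 97 and 95 in ras2a22 cells, against 311, 221, 290 and 278 in the wild type (-1.49 ± 0.30, adjusted p = 0.0101). TIF35 read 241 and 299 in ras2a22 cells, against 538, 522, 684 and 679 in the wild type (-1.15 ± 0.24, adjusted p = 0.0129). In none of the 3 did the arrays overlap. No call was left without either ras2a22 array or with both averaged as 1 sample, and 1 in a fit of only these groups. The count was 5 under quantile normalization or a filter on dim genes at the 25th percentile, 8 with a floor at that percentile, 9 with wild-type replicates 3 and 4 only and 10 with trended and robust eBayes. The shares of all genes called under these settings are not given here, so the higher counts cannot be set against them. The member mean was 6.98 in ras2a22 cells and 7.55 in the wild type. All 6 stress genes rose (mean 10.1 in ras2a22 cells and 4.25 in the wild type), and their part was not tested. In ras2v19 cells KRS1 alone passed (0.144 percent of all genes called, 0.108 lower). It was at 1 in both ras2v19 arrays and at 13 to 41 in the wild type, and the call was lost with a floor at the 25th percentile, without wild-type replicate 3 or in a fit of only these groups. Without ras2v19 replicate 1, 4 members were called, and 2 with wild-type replicates 3 and 4 only.

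Set directly against the dominant-negative allele, ras2v19 cells were higher in ILS1, TIF35, YEF3, RPG1 and FUN12 and lower in KRS1, beside 6.62 percent of all genes called, 3.44 higher and 3.18 lower. ILS1 read 363 and 346 in ras2v19 cells and 107 and 113 in ras2a22 cells (1.69 ± 0.29, adjusted p = 0.0058). YEF3 read 2103 and 2001 in ras2v19 cells and 913 in both ras2a22 arrays (1.17 ± 0.28, adjusted p = 0.0291). For neither gene did the groups overlap, but the ras2a22 arrays may not be independent, and the equal YEF3 values are not 2 separate readings for certain. Changes of the other higher genes were 1.22 for TIF35, 1.11 for RPG1 and 0.99 for FUN12. The count was 1 and 2 without ras2a22 replicates 1 and 2, and 2 without ras2v19 replicate 2. It was 1 with the ras2a22 arrays averaged or in a fit of only these groups. Of 6 stress genes 5 fell, with a mean log2 level of 4.95 in ras2v19 cells and 10.1 in ras2a22 cells, and their part was not tested.

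No member passed in the ira strains. In ira1, ira1RA and ira2 cells limma called 0.234, 0.0719 and 2.09 percent of all genes, and 3, 1 and 3 members had an unadjusted p under 0.05. In ira1RA against ira1 cells no member passed either (0.126 percent of all genes, 1 member at an unadjusted p under 0.05). Without wild-type replicate 1, with a floor at the 25th percentile or with trended and robust eBayes, 1 member passed in ira2 cells. With wild-type replicates 3 and 4 only, 2 passed in ira1, 1 in ira1RA and 4 in ira2 cells, and with replicates 1 and 2 only, 1 in ira1 cells. GCD2 was at 1 in wild-type replicates 1 and 2 and at 22 and 28 in replicates 3 and 4, so its large changes in these columns rest on the floor. Other members also differed between these pairs of wild-type arrays: replicates 3 and 4 were higher in KRS1 (1.43 on the log2 scale), HCR1 (1.31), SUI3 (0.99) and SUI1 (0.94) and lower in FRS2 (-0.99) and NIP1 (-0.79).

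**Figure D5:**
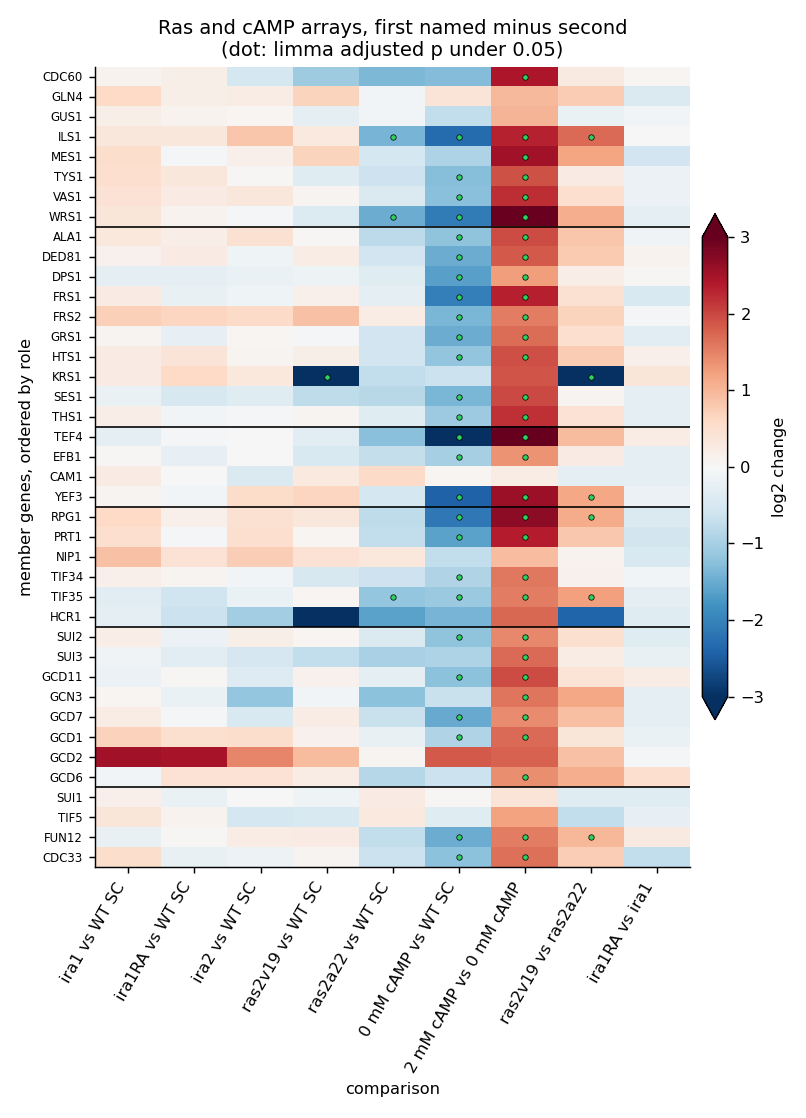
Log2 change of the 40 members (rows, by role) in 9 comparisons of SC medium arrays (columns, first group minus second); green dots mark limma adjusted p under 0.05, and colours saturate at 3 in either direction. The 2 mM against 0 mM cAMP column holds 31 dots and the 0 mM against wild type column 26, while the ira columns hold none.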

How the data were processed

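Per the submitters' processing notes, the authors made the colony values with RMA, and they were deposited as log2 levels. The SC medium values, deposited as whole-number intensity between 1 and 16048, have no stated origin; how they were processed is not given in any source used here. Array medians were 6.27 to 6.68 (log2) and 28 to 30 (intensity), and 6.77 to 25.6 percent of an SC array's values were at 1. Neither table gives detection calls, so the number of arrays limits the precision. Probe sets pointing to 1 gene (5668 of 6739, and 5595 of 6178) were named through the array annotation and RefSeq R64, the brightest being kept per gene. Probe sets shared by paralogs, such as TEF1 and TEF2, left 17 of 23 other translation factors and 77 of 133 ribosomal protein genes in the colony table. SC arrays were scaled to a common median (factors 0.96 to 1.03), floored at their 10th percentile (0.993) and put on the log2 scale.

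Each table was fitted apart with limma 3.58.1 in R 4.3.3 (all group means, eBayes, 49 and 10 residual degrees of freedom), with two-sided tests, Benjamini-Hochberg adjustment over all genes and calls at an adjusted p under 0.05. Departures are double minus both singles plus wild type. The fit was tested on simulated data. Any member may be named. Full statistics go to up to 3 called members per role list with the largest change, members against their list's majority are named, and so are up to 4 called genes of other lists. The members and lists were chosen with earlier results of these data known. Same-number arrays of the wild-type forms had residual correlations of 0.113 to 0.254, so a blocked fit was made. Alternatives comprised quantile normalization, leaving out genes under the 25th percentile of mean level, averaging the probe sets, fitting just the compared groups, trended and robust eBayes, blocking on the replicate number, leaving out each array or both libraries that read against their labels, and, for SC medium, a 25th percentile floor and a slope on cAMP. Chosen after seeing the data were each pair of SC wild-type arrays alone and the ras2a22 arrays averaged.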

Additional observations from a re-analysis of the deposited data

Results flagged for a closer look

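In 6 of 160 checks of a member in a group of 4 to 10 arrays, 1 array lay apart from the rest by a test for single outliers, which chance does in about 1 in 20 groups. RPG1 read 11.34 in the library labelled tec1 replicate 2 and 10.35 to 10.57 in the other tec1 arrays. TIF35 read 11.26 in that same library and 10.59 to 10.73 in the others. GCD1 read 9.46 in the library labelled tec1 replicate 1, the one that reads against its label, and 9.74 to 9.84 in the others. ILS1 read 9.60 in cup9 replicate 5, against 10.00 to 10.14. RPG1 read 10.60 in the library labelled cup9 replicate 4, which also reads against its label, and 10.11 to 10.23 in the others. GCD2 read 5.35 in yeast-form wild-type replicate 5, against 5.76 to 5.87.

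The change in a double deletion differed from the sum of its singles for 4 members in sfl1-skn7, 3 in sfl1-yap6 and 1 in tec1-cup9 colonies. Limma called 10.0, 14.3 and 2.62 percent of all genes in these departures, and each of the member counts is close to or below that share of 40 genes. Without both libraries that read against their labels, 3 members were called in the sfl1-skn7 departure, 10 in sfl1, 25 in cup9-sfl1 and 29 in sfl1-yap6 colonies.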

How the results depend on the processing

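No called member changed sign over its 3560 recomputations, but 627 of these lost the call, so single calls near the threshold are not firm. The recomputations reuse most of the same arrays for members already called, so the kept signs do not test the directions. Groups of 2 to 6 arrays limit the precision. With only the groups compared in the fit, the members called were 12 for yap6, 14 for tec1-sfl1, 0 for tec1-sok2, 17 for cup9-sok2, 4 for sfl1-sok2, 14 for sok2-skn7, 0 and 1 for the tec1-cup9 and sok2-yap6 departures, 0 for ras2v19, 1 for ras2a22, 14 for 0 mM cAMP against the wild type and 1 for ras2v19 against ras2a22. These fits hold fewer samples. Quantile normalization gave 1 for cup9, 1 for sok2, 1 for the cup9-sfl1 departure and 5 for ras2a22. It moved the median of all genes by over 0.1 in 4 comparisons, to -0.13 for 0 mM cAMP against the wild type (0.18 before), 0.02 for ira2 (-0.18 before), 0.04 for ira1 (-0.10 before) and 0.13 for ras2v19 against ras2a22 (0 before). The filter at the 25th percentile gave 5 for ras2a22. Trend and robust eBayes gave 1 for ira2 and 10 for ras2a22. The floor at the 25th percentile gave 1 for ira2, 0 for ras2v19 and 8 for ras2a22. With SC wild-type replicates 1 and 2 only, 1 member was called for ira1, and with replicates 3 and 4 only, 2 for ira1, 1 for ira1RA, 4 for ira2, 2 for ras2v19 and 9 for ras2a22. With the ras2a22 arrays averaged, 0 were called for ras2a22 and 1 for ras2v19 against ras2a22. Where no construction shows it, the cause was not tested. The slope over cAMP called 26. Member counts under alternative settings, here and above, stand without the share of all genes called under the same setting. A change in such a count therefore cannot be read as particular to the members.

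The replicate number as a block gave 19 calls between the wild-type forms, and no count of any comparison moved by over 1.5 times under the block. In the other comparisons the arrays share only a number.

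Leaving out 1 array at a time, or both libraries that read against their labels, gave 15 to 21 calls between the forms, 0 to 0 for tec1, cup9 and sok2, 2 to 16 for sfl1, 5 to 21 for skn7 and 3 to 7 for yap6. For the pairs it gave 0 to 1 for tec1-cup9, 2 to 7 for tec1-sfl1, 1 to 14 for tec1-sok2, 6 to 10 for tec1-skn7, 8 to 28 for cup9-sfl1, 1 to 8 for cup9-sok2, 0 to 4 for cup9-skn7, 3 to 13 for sfl1-sok2, 4 to 12 for sfl1-skn7, 1 to 5 for sok2-skn7, 3 to 6 for cup9-yap6, 19 to 30 for sfl1-yap6 and 2 to 8 for sok2-yap6. For departures it gave 0 to 1 for tec1-cup9, 0 to 4 for tec1-sok2, 0 to 1 for cup9-sfl1, 0 to 10 for sfl1-skn7, 0 to 4 for sfl1-yap6 and 0 to 0 for the others. In SC medium it gave 0 to 0 for ira1, ira1RA and ira1RA against ira1, 0 to 1 for ira2, 0 to 4 for ras2v19, 0 to 4 for ras2a22, 14 to 27 for 0 mM cAMP, 22 to 24 for 2 mM against 0 mM and 1 to 5 for ras2v19 against ras2a22. Where 1 array was left in an arm, its spread was taken to be that of the remaining groups.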
